A study of Homo sapiens with 32 samples.

Results

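Histone H3 lysine 27 acetylation (H3K27ac) was measured at the collagen and fibrillar matrix genes of SK-N-BE(2)C cells, a MYCN-amplified neuroblastoma line of the adrenergic type. The genes were 42 collagens, fibrillins, elastin and fibronectin, listed by name and not by any measured value. A region belonged to a gene when its nearest protein-coding start site (GENCODE annotation on hg19) lay within 100 kb and was that gene's, or when it overlapped the gene body by 1 base or more. This gave 322 of the 92108 deposited regions, spread over 35 of the 42 genes; 224 of them overlapped a gene body and 98 lay outside it. At 22 regions the nearest start site was another gene's.

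Cells were cultured for 5 days in palbociclib (PB, a CDK4/6 inhibitor, at 1 µM), in retinoic acid (RA, dose not given in the labels), in both drugs (PB+RA) or in the solvent DMSO, with 4 chromatin immunoprecipitation (ChIP) libraries in each group and 16 input libraries without values of their own. All 16 ChIP libraries came from this single cell line, and the input reads served the authors as the reference. Nothing in the labels says that equal replicate numbers share a culture, so p-values measure the spread between these libraries.

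Collagens are triple-helical proteins of the extracellular matrix. Fibrillar collagens form the load-bearing fibres, FACIT collagens sit on the surface of those fibres, collagen VI forms beaded filaments, and collagen IV and the multiplexins belong to basement membranes. Fibrillins build the microfibrils on which elastin is laid down, and fibronectin is the adhesive scaffold on which collagen is assembled. In tumours much of this matrix is made by stromal fibroblasts, but tumour cells of neural crest origin can make collagen as well. H3K27ac marks active promoters and enhancers; it is not a measure of RNA.

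Sequences from the regions the results turn on are shown first, so that their base composition can be read beside their values, from the hg19 plus strand. For each treatment against DMSO they are 300 bases of the member region with the smallest p in each direction, taken where peaks of the most libraries overlapped, with the COL6A2 start site added; 5 regions remain because COL13A1 came first in both RA and PB+RA. Capitals mark matches of AGGTCA (a single copy of the nuclear receptor binding word), TGANTCA (AP-1) and GGAATG (TEAD) on either strand.
COL5A2 intron (chr2:190087232-190087531): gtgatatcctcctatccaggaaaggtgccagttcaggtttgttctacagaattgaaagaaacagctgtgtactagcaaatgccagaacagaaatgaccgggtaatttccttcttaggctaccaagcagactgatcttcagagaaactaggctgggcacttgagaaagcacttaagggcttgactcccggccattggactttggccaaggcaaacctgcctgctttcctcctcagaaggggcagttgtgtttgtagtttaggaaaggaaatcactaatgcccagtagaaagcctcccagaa
COL18A1 upstream (chr21:46787161-46787460): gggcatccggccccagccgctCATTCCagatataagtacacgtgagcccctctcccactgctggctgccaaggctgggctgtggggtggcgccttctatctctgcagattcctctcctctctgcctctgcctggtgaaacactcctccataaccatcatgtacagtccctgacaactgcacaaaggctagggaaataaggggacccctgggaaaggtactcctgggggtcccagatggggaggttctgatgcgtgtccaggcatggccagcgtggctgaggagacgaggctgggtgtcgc
COL13A1 downstream (chr10:71734186-71734485): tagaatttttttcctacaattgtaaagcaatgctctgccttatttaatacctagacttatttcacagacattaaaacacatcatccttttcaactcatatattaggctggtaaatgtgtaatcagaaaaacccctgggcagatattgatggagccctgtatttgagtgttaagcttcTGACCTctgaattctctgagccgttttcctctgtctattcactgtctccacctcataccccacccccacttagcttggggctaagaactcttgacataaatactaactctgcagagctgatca
FBN1 intron (chr15:48866047-48866346): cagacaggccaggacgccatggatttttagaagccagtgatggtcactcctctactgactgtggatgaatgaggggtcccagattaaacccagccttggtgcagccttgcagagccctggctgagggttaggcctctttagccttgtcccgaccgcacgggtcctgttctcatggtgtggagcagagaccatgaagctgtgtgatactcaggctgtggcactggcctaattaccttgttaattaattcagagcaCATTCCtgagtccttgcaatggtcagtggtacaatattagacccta
COL5A1 intron (chr9:137600142-137600441): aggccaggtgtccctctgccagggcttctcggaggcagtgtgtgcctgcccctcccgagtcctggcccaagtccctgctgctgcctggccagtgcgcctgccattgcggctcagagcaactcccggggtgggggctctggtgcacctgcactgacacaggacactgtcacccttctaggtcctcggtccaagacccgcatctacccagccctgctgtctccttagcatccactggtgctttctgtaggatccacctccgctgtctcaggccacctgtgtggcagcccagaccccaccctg
COL6A2 start site (chr21:47517776-47518075): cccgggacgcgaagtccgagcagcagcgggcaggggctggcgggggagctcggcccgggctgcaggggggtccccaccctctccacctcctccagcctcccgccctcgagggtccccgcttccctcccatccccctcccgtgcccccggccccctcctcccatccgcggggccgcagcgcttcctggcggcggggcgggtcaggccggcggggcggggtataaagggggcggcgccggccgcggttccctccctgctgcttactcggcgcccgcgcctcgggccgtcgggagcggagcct
The COL13A1 window, from a region that increased under every treatment, had a GC content of 39.7% and 1 CpG. The COL5A2 window, from a region that increased with PB and PB+RA, had 47.0% and 2 CpGs. The windows from regions that decreased were richer: 51.7% and 4 CpGs at FBN1, 60% and 8 CpGs at COL18A1, 65.0% and 8 CpGs at COL5A1. The whole regions had 38.2% at COL13A1, 35.8% at COL5A2, 37.1% at FBN1, 57.9% at COL18A1 and 58.4% at COL5A1. The FBN1 region as a whole was thus AT-rich and not richer in GC than the COL13A1 region. The COL6A2 window, 250 bases before to 50 bases after the gene's 5′ end, had 79.3% and 36 CpGs. Over the 92092 region windows that could be read the median was 50.3% with 4 CpGs, and over 78582 start-site windows it was 61.0% with 19 CpGs. AGGTCA occurred once, in the COL13A1 window, against 18.4% of all region windows that hold it. GGAATG occurred once each at FBN1 and COL18A1, against 15.8% of all region windows. TGANTCA was in none of the 6 windows and is in 10.8% of all region windows. The retinoic acid receptor element searched, a direct repeat of AGGTCA with a spacer of 5 bases (so that each match also holds AGGTCA), was in 0 of 322 member windows and 0.0185% of all region windows. CANNTG (E-box) was in 77.0% of member windows and 78.5% of all region windows. Of the 34 member windows increased by RA, 3 held AGGTCA, 5 TGANTCA and 7 GGAATG.

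Peak calls ranged from 64516 peaks (DMSO replicate 3) to 104392 peaks (RA replicate 2), covering 104.1 to 167.0 Mb. Libraries of replicates 1 and 2 deviated together across groups, as did those of 3 and 4: 46 of 48 such pairs of libraries were positively correlated in their deviations from the group mean, against 3 of 48 pairs that joined 1 or 2 with 3 or 4. Of the adrenergic neuroblastoma genes PHOX2A, HAND2, GATA3, ISL1, TFAP2B, TH, DBH and MYCN, all but MYCN had a start-site region with a peak in every library, and MYCN had 3 regions, none within 1 kb of its start site. Of the fibroblast or mesenchymal genes, PRRX1 and FAP had no region, TWIST2 and TCF21 had no start-site region, and PDGFRA, PDGFRB, THY1, DCN and LUM had one with peaks in all libraries of every group. The start-site region of CDH5 (endothelial) had a peak in 0 PB, 2 RA, 1 PB+RA and 1 DMSO libraries and that of SPI1 (immune) in 0, 1, 0 and 2; TEK, PTPRC and CD3E had no start-site region. Of the 32 regions of the fibroblast genes, 2 decreased with PB (6.25%, against 4.37% of all regions), 8 with RA (25%, against 6.67%) and 12 in PB+RA (37.5%, against 12%). Of the 73 regions of the adrenergic genes, 5 decreased with PB (6.85%), 15 with RA (20.5%) and 15 in PB+RA (20.5%). Markers of both kinds thus moved with the treatments, and the part of such cells in the collagen values was not tested. In cells measured in bulk, fewer cells with a mark and a weaker mark per cell cannot be told apart.

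Levels are given on 2 scales. The concentration of a region is the authors' mean log2 normalised read count of a group, which has no error here; differences between groups are on that log2 scale. The value of a single library is the peak-weighted fold enrichment: the authors' MACS2 fold enrichment over input averaged over all bases of the region, with 0 where no peak was called, scaled so that libraries have equal medians over 26508 regions with a peak in all libraries. Tests were made with limma on log2 of this value plus 1. A call of increased or decreased needed a Benjamini-Hochberg adjusted p under 0.05 over all 92108 regions and a difference beyond 0.5 in size. Differences on this scale understate changes at low values.

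With PB, alone or with RA, more collagen and fibrillar matrix regions decreased than increased. COL5A1 had the most decreased regions in both comparisons, followed by COL6A2 and COL18A1 with PB and by COL23A1, COL6A2 and ELN with PB+RA. With RA alone the shares of increased and decreased regions were near those of all regions, and COL21A1, COL22A1 and COL13A1 had the most increases. The balance of decreases over increases with PB ended when values were centred within GC classes (9 and 9), and that with PB+RA ended with replicates 3 and 4 only (11 decreases and 12 increases). In that last fit 3.42% of members and 2.69% of all regions decreased with PB+RA, and 3.73% and 7.85% increased. With PB, 32 of 322 member regions decreased (9.94%, against 4.37% of all regions) and 7 increased (2.17%, against 4.85% of all regions). With RA, 34 increased (10.6%, against 10.3%) and 19 decreased (5.90%, against 6.67%); decreases equalled or outnumbered increases with quantile normalization (27 increases and 28 decreases), with only peaks of −log10 q of 5 or more (5 and 5), without DMSO replicate 3 (25 and 40) and with replicates 1 and 2 only (32 and 36). Over all regions those settings gave, in the same order, 7994 and 7686, 1622 and 1499, 8649 and 8386, and 9410 and 7310 increases and decreases with RA. With PB+RA, 70 decreased (21.7%, against 12%) and 27 increased (8.39%, against 18.3%). The members' median concentration difference from DMSO was −0.57 for PB, −0.07 for RA and −0.62 in PB+RA, beside −0.09, −0.01 and −0.02 over all regions. These 3 comparisons share the DMSO libraries. Differences of concentration below −1 occurred at 84 member regions with PB (26.1%, against 8.14% of all regions), at 25 with RA (7.76%, against 7.24%) and at 112 with PB+RA (34.8%, against 16.1%). Differences above 1 occurred at 13 with PB (4.04%, against 7.27%), 44 with RA (13.7%, against 14.6%) and 42 with PB+RA (13.0%, against 19.8%). By gene, 13 of 35 had at least 1 region decreased with PB, 9 with RA and 17 in PB+RA, where 18.4%, 16.7% and 32.9% of the 16595 genes with a region had one. At least 1 region increased in 5 genes with PB, 12 with RA and 12 in PB+RA, beside 14.2%, 22.7% and 36.1% of those genes; genes with many regions have more chances in such counts.

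**Figure D1:**
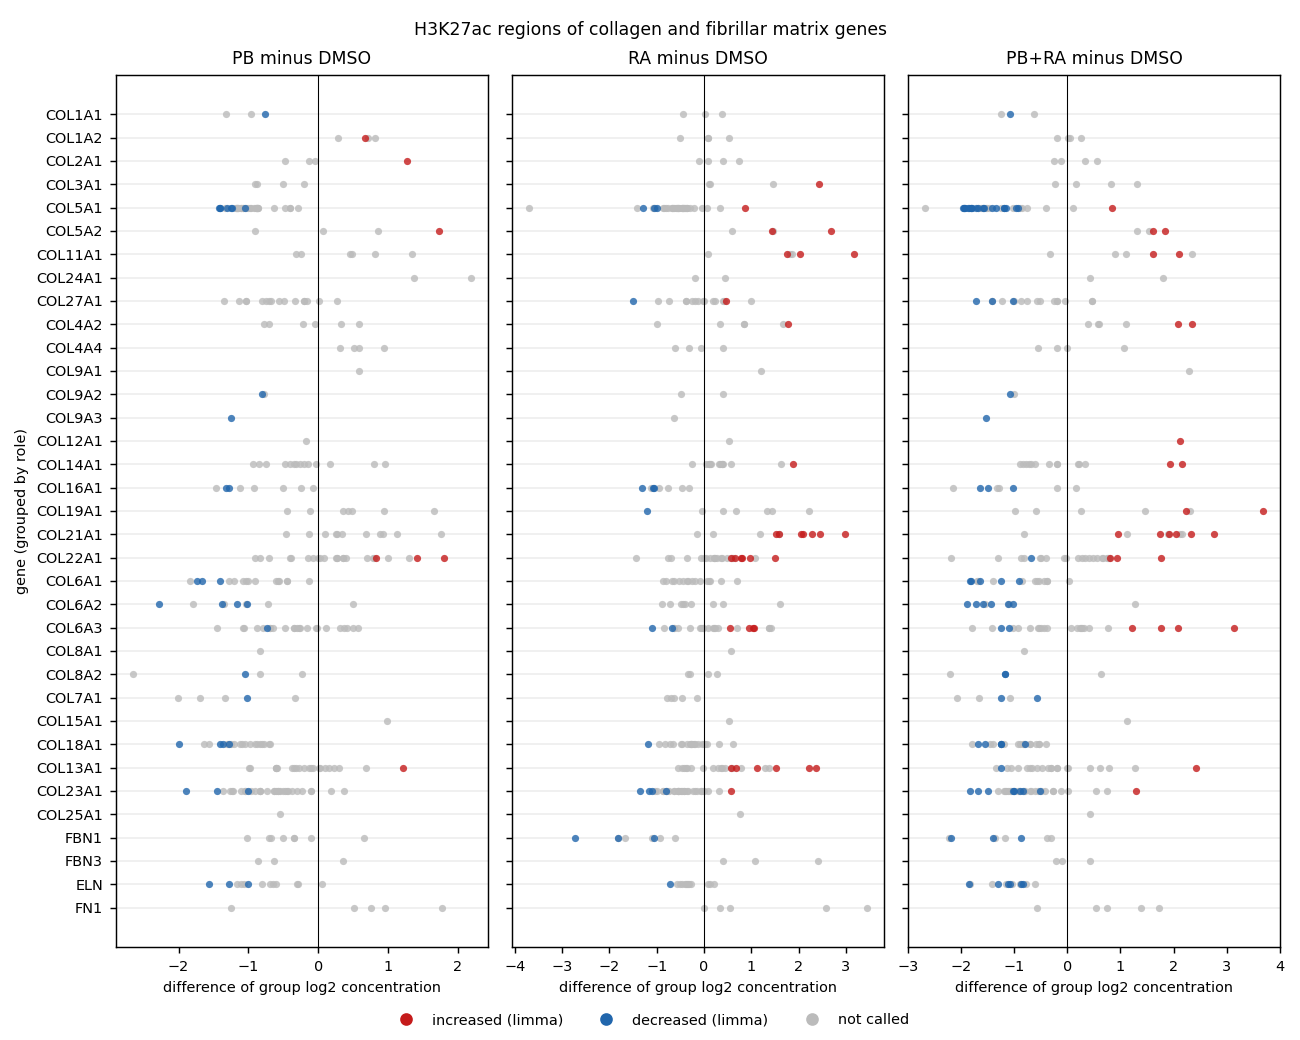
Each point is 1 H3K27ac region of a gene, placed by the difference of group log2 concentration (PB, RA or PB+RA minus DMSO, x axis, log2 units); rows are genes grouped by role, and colour shows the limma call. COL5A1, COL6A1, COL6A2, COL18A1 and ELN lie mostly left of 0 with PB and PB+RA, and COL21A1, COL11A1 and COL5A2 mostly right of 0 with RA and PB+RA.

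Member regions were richer in GC than the rest, with a median of 55.3% against 47.1% over all regions, and in both the difference from DMSO was lower at higher GC content with PB and PB+RA. The members decreased with PB had a median GC content of 61.0% and those increased 44.7%; with PB+RA the medians were 58.5% and 41.7%, and with RA 56.1% and 46.7%. At 60% GC and above, 34.2% of 76 member regions decreased with PB+RA, against 25.5% of 7955 regions in all; at 50 to 60% it was 27.5% of 142 against 19.2%; at 40 to 50% it was 4.0% of 75 against 8.26%. With PB the shares at 60% GC and above were 25% of members and 16.8% of all regions. When library values were centred within 10 classes of GC content, 9 member regions increased and 9 decreased with PB, in place of 7 and 32, 35 increased and 22 decreased with RA, in place of 34 and 19, and 26 increased and 35 decreased with PB+RA, in place of 27 and 70. Over all regions the same centring gave 3145 increases and 1667 decreases with PB, in place of 4471 and 4026, 8115 and 8110 with RA, in place of 9495 and 6145, and 11011 and 10468 with PB+RA, in place of 16856 and 11095. The share decreased with PB+RA was then 10.9% of members and 11.4% of all regions, and with PB it was 2.8% and 1.81%, so the excess of decreased members in PB+RA was not seen under this centring. The part of base composition in single regions was not tested.

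**Figure D2:**
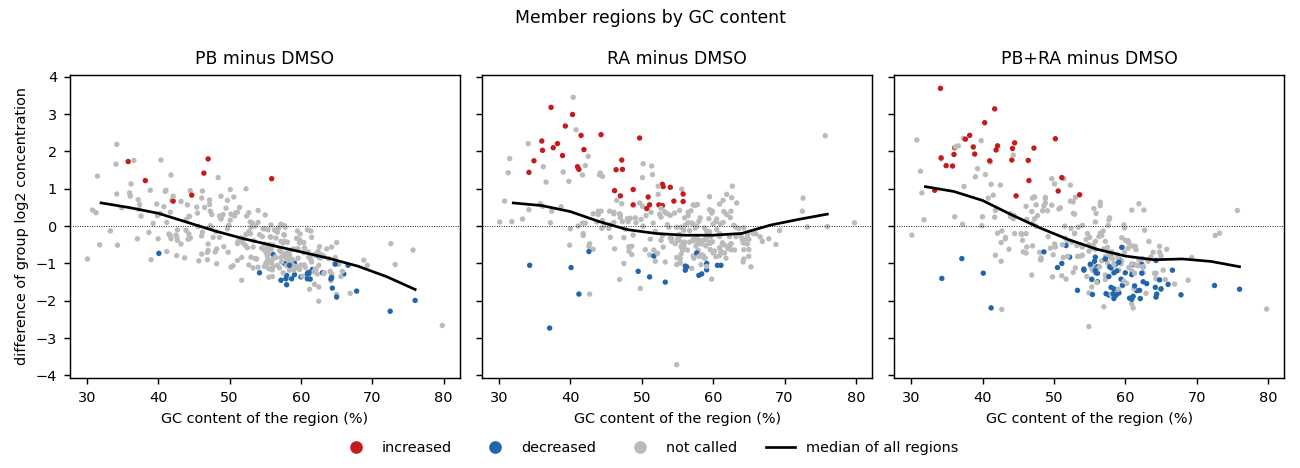
Difference of group log2 concentration (y axis) of each of the 322 member regions by its GC content in percent (x axis), for PB, RA and PB+RA minus DMSO; the line is the median of all 92108 regions in steps of GC content. The member regions run downwards with the line for PB and PB+RA, with decreased members at a median of 61.0% and 58.5% GC.

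The fibrillar collagens held 77 regions in 9 genes, of which 8 decreased and 3 increased with PB, 4 decreased and 8 increased with RA, and 24 decreased and 5 increased with PB+RA. Among all regions, 4.37% decreased and 4.85% increased with PB, 6.67% and 10.3% with RA, and 12% and 18.3% with PB+RA. COL5A1, the alpha1 chain of collagen V that nucleates fibrils, had 35 regions, the most of any member. All 35 had a negative concentration difference with PB, 32 with RA and 33 in PB+RA, with medians of −1.05, −0.55 and −1.53. Of these, 7 decreased with PB, 3 with RA and 20 in PB+RA. The widest, at chr9:137589053-137605787 over introns and exons in the middle of the gene, had peak-weighted enrichments of 4.12, 4.64, 4.10 and 4.09 with PB, 3.16, 3.16, 3.39 and 3.55 with RA and 1.64, 1.81, 1.53 and 2.4 in PB+RA, against 7.78, 10.3, 8.24 and 7.55 in DMSO. Every treated library lay below every DMSO library, and every PB+RA library lay below every library of either single drug. The limma differences were −0.85 ± 0.15 (SE, adjusted p = 0.00154) with PB, −1.12 ± 0.15 (adjusted p = 1.73e-05) with RA and −1.74 ± 0.15 (adjusted p = 5.58e-08) with PB+RA. With values centred within GC classes, the PB call at this region was lost and those for RA and PB+RA were kept. At the COL5A1 start site (chr9:137532442-137539733) the values were 0.837, 1.31, 1.84 and 1.44 with PB, 1.76, 2.55, 4.46 and 4.04 with RA, and 0.622, 0.628, 1.51 and 2.27 in PB+RA, against 3.27, 2.67, 3.02 and 5.27 in DMSO. It decreased with PB (−0.94, adjusted p = 0.0281) and PB+RA (−1.05, adjusted p = 0.00433) and was not called with RA (−0.14, adjusted p = 0.809). Farther into the gene, chr9:137607612-137617352 decreased with PB+RA (0.273 ± 0.0913 against 2.37 ± 1.04 in DMSO, SD, n = 4 each), and chr9:137619128-137633982 decreased with every treatment (0.294 ± 0.284 with PB, 0.555 ± 0.213 with RA and 0.196 ± 0.195 in PB+RA, against 2.54 ± 1.31 in DMSO). One region 38033 bases upstream, chr9:137494204-137495616, increased with RA (2.18 ± 0.811 against 0.0711 ± 0.142 in DMSO, adjusted p = 0.0013). The smallest concentration difference of any member, −3.71 with RA, was at chr9:137606353-137606919 in COL5A1, where 0 RA libraries and 2 DMSO libraries had a peak and no call was made.

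COL1A1, which encodes the main chain of collagen I, had 3 regions. Its start-site region (chr17:48276549-48292453) had values of 4.65, 3.61, 3.35 and 3.65 with PB, 7.35, 6.68, 7.68 and 6.15 with RA, and 2.82, 2.56, 2.86 and 2.95 in PB+RA, against 8.0, 8.06, 4.28 and 6.24 in DMSO. The PB+RA libraries lay below all others, whereas the RA and DMSO libraries overlapped. The highest PB library (4.65) also lay above the lowest DMSO library (4.28). It decreased with PB (−0.64 ± 0.17, adjusted p = 0.0204) and with PB+RA (−0.98 ± 0.17, adjusted p = 0.000164), and PB+RA was also lower than RA alone (−1.07, adjusted p = 0.000488). COL1A2, the partner chain, had 4 regions and none at its start site; 1 region 44954 bases from it, chr7:94069161-94070416, increased with PB (2.31 ± 0.482 against 0.439 ± 0.878 in DMSO, adjusted p = 0.0376). COL2A1, the cartilage collagen, likewise had 1 intronic region that increased with PB, chr12:48384326-48385839 (2.82 ± 2.30 against 0.247 ± 0.494, adjusted p = 0.0338). Each of these calls was lost when DMSO replicate 1 or 3 or PB replicate 3 or 4 was left out; that at COL2A1 was also lost without DMSO replicate 2, and that at COL1A2 without DMSO replicate 4 or PB replicate 1 or 2 and with values centred within GC classes. COL3A1, the collagen of pliable tissues, had a region 47416 bases from its start site, chr2:189886515-189887990, with peaks in the 4 RA libraries (3.50, 2.61, 2.04 and 2.13) and in no PB, PB+RA or DMSO library. It increased with RA (adjusted p = 4.11e-05), PB+RA was lower than RA (−1.82 ± 0.26, adjusted p = 0.000276), and the interaction of the drugs was −1.82 ± 0.37 (adjusted p = 0.0365). The interaction call was lost with the replicate block, with the share of bases under peaks as the measure, with only peaks of −log10 q of 5 or more, without scaling and without any 1 of DMSO replicates 1, 2 and 4, the 4 PB libraries, RA replicates 1 and 2 and PBandRA replicate 1.

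COL5A2 and COL11A1, chains of collagens V and XI, had increases and no decreases against DMSO. Their regions were AT-rich, with median GC contents of 37.4% and 36.7%. In COL5A2 the intronic region chr2:190084559-190087721 had values of 3.25, 3.34, 3.91 and 0.813 with PB, 0, 0.481, 0.670 and 0.878 with RA and 1.63, 3.66, 2.97 and 2.35 in PB+RA, against 0 in every DMSO library. It increased with PB (1.84 ± 0.31, adjusted p = 0.000937) and PB+RA (1.84, adjusted p = 0.00011), and PB replicate 4 lay apart from the other PB libraries. A second COL5A2 intronic region, chr2:190074281-190076863, increased with RA (1.84, 2.19, 3.34 and 2.28) and PB+RA (3.6, 4.75, 2.00 and 2.49), against 0, 0, 1.13 and 0 in DMSO. In COL11A1 the region 80919 bases upstream, chr1:103655347-103657661, was at 0 in every PB library, at 3.58, 3.38, 2.31 and 2.45 with RA and at 0.728, 0.589, 0.217 and 0.967 in PB+RA, against 0 in every DMSO library. It increased with RA (1.96 ± 0.27, adjusted p = 2.67e-05), while for PB+RA the adjusted p was 0.0621; PB+RA was lower than RA (−1.28 ± 0.27, adjusted p = 0.00381), and no PB+RA library overlapped an RA library. The COL11A1 intronic region chr1:103357147-103358625 increased with RA (2.33 ± 0.805) and PB+RA (2.42 ± 0.415), with all DMSO libraries at 0. Its region within 1 kb of an annotated start site, chr1:103572149-103572946, was not called in any comparison with DMSO and had concentrations of 5.49 with PB, 5.89 with RA and 5.48 in PB+RA, against 5.81 in DMSO. COL24A1 had 2 intronic regions and no call. COL27A1 had 16 regions, of which 3 decreased with PB+RA; at chr9:116935198-116944098 the values averaged 2.4 ± 0.999 with PB, 1.20 ± 0.732 with RA and 0.636 ± 0.361 in PB+RA, against 3.26 ± 1.38 in DMSO (SD, n = 4 each).

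**Figure D3:**
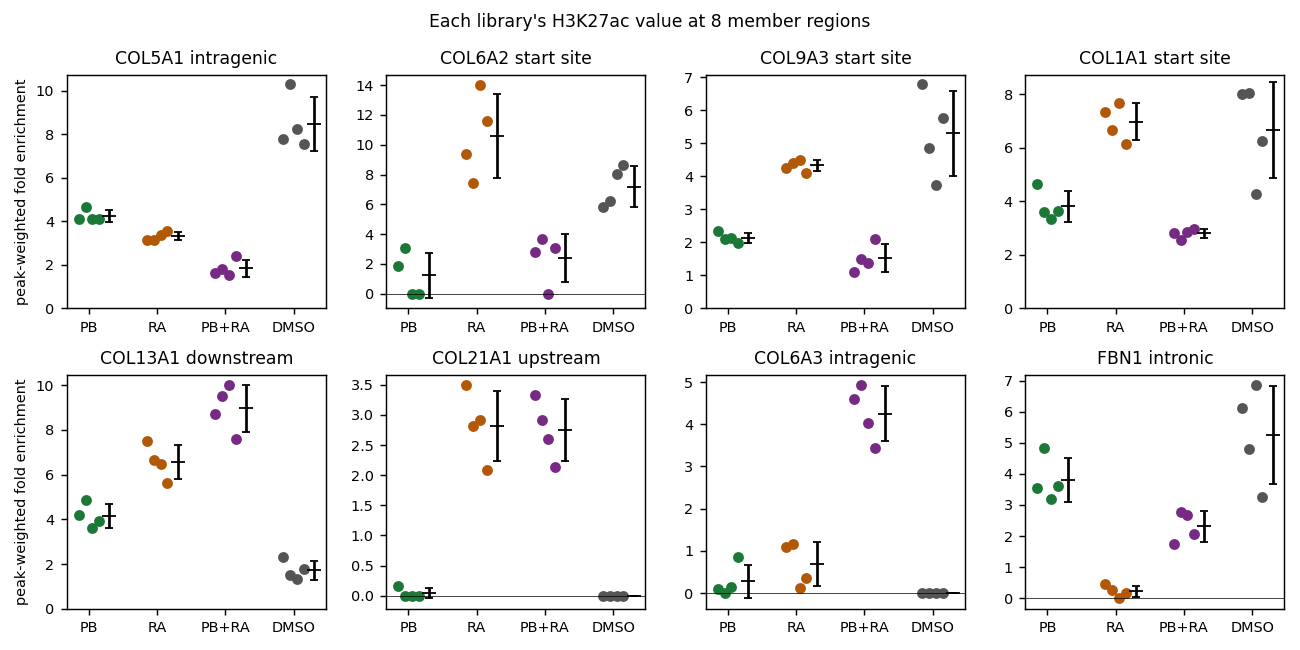
Peak-weighted fold enrichment (y axis) of each ChIP library at 8 member regions, by group (x axis, PB, RA, PB+RA, DMSO); each point is 1 library, and the bar beside each group is the mean ± SD of its 4 libraries. PB and PB+RA lie below DMSO at COL5A1, COL6A2 and COL9A3. At COL1A1 PB+RA lies below DMSO, while 1 PB library lies above the lowest DMSO library. PB+RA lies above DMSO at COL13A1, COL21A1 and COL6A3.

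The collagen VI chains had 49 regions, of which 8 decreased and 0 increased with PB, 2 decreased and 4 increased with RA, and 13 decreased and 4 increased with PB+RA. The shares of all regions were 4.37% decreased and 4.85% increased with PB, 6.67% and 10.3% with RA, and 12% and 18.3% with PB+RA. COL6A1 and COL6A2 lie next to each other on chromosome 21 and had 16 and 9 regions, with median GC contents of 61.4% and 62.3%. Of the COL6A1 regions 3 decreased with PB and 5 with PB+RA, and of the COL6A2 regions 4 and 6; none was called with RA in either gene. The COL6A2 start-site region (chr21:47516780-47519084, 72.5% GC), which contains the GC-rich window printed above, had values of 1.87, 3.06, 0 and 0 with PB, 9.36, 7.46, 14.0 and 11.6 with RA, and 2.82, 3.69, 0 and 3.10 in PB+RA, against 5.85, 6.22, 8.05 and 8.65 in DMSO. PB and PB+RA libraries lay below all DMSO libraries, and RA libraries overlapped them. The differences were −2.13 ± 0.42 (adjusted p = 0.00314) with PB, 0.49 (adjusted p = 0.486) with RA and −1.47 (adjusted p = 0.0108) with PB+RA. Within COL6A2, chr21:47544555-47553397 decreased with PB+RA (0.724 ± 0.422 against 3.85 ± 1.94 in DMSO, adjusted p = 0.000292). At COL6A1, the intragenic regions chr21:47408379-47410235 (0.0783 ± 0.157 with PB against 2.29 ± 1.13 in DMSO) and chr21:47410693-47420194 (0.100 ± 0.0957 against 2.42 ± 1.33) decreased with PB, and chr21:47396522-47397699, 3985 bases from the start site, decreased with PB+RA (0.855 ± 1.45 against 3.79 ± 0.593). The calls with PB at both intragenic regions were lost with values centred within GC classes. The COL6A1 start-site region itself (chr21:47400839-47403536) was not called, at 4.24 ± 0.840 with PB, 8.04 ± 2.2 with RA and 5.63 ± 2.49 in PB+RA, against 6.87 ± 1.84 in DMSO.

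COL6A3, the largest collagen VI chain, lies on chromosome 2 and had 24 regions with a median GC content of 47.0%. Of these, 4 increased and 2 decreased with RA, and 4 increased and 2 decreased with PB+RA. The region chr2:238296210-238301738, over an exon 15720 bases from the nearest COL6A3 start site, had values of 0.0859, 0, 0.153 and 0.864 with PB, 1.10, 1.17, 0.110 and 0.366 with RA, and 4.60, 4.92, 4.04 and 3.43 in PB+RA, against 0 in every DMSO library. Each PB+RA library was above every single-drug library, and PB+RA was higher than RA (1.68 ± 0.29, adjusted p = 0.000884) and than PB (2.08 ± 0.29, adjusted p = 4.51e-05). The interaction at this region was not called. Upstream, chr2:238329933-238333163 increased with RA (6.13 ± 1.00 against 2.41 ± 0.755, adjusted p = 0.000357). Downstream of the gene, chr2:238168524-238170272 decreased with every treatment (0.0730 ± 0.146 with PB, 0 in all RA and PB+RA libraries, against 1.72 ± 1.49 in DMSO), and chr2:238183983-238192390 decreased with RA (3.73 ± 1.04 against 6.31 ± 1.12, adjusted p = 0.0147).

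**Figure D4:**
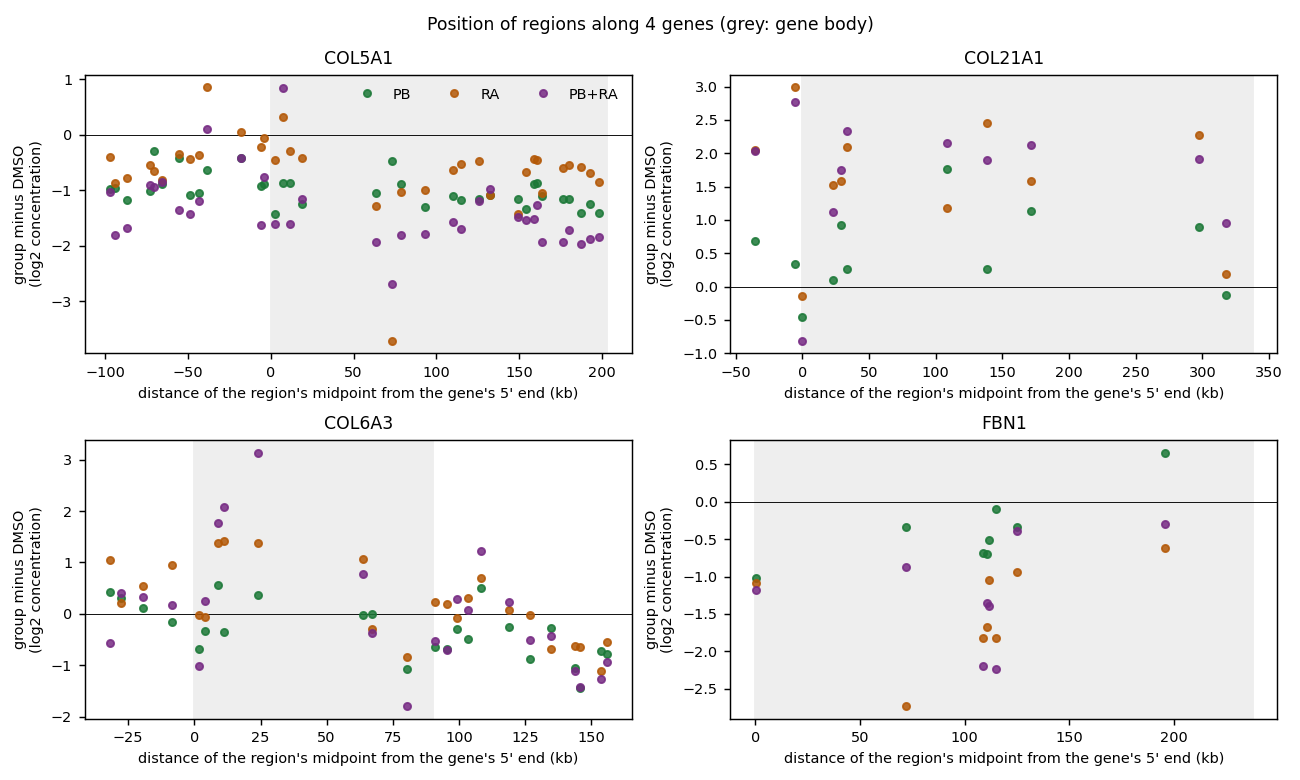
Difference of group log2 concentration (y axis; PB, RA and PB+RA minus DMSO) of each region of COL5A1, COL21A1, COL6A3 and FBN1 by the distance in kb of its midpoint from the gene's 5′ end (x axis, in the direction of transcription; grey is the gene body). COL5A1 lies below 0 nearly throughout, COL21A1 lies above 0 with RA and PB+RA except at the start site, and FBN1 lies below 0 with RA throughout.

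The FACIT collagens had 69 regions in 9 genes; 3 increased and 4 decreased with PB, 14 increased and 4 decreased with RA, and 14 increased and 6 decreased with PB+RA. Across all regions 4.85% increased and 4.37% decreased with PB, 10.3% and 6.67% with RA, and 18.3% and 12% with PB+RA. The increased share of FACIT regions was thus above that of all regions with RA and near it with PB+RA. Of the 14 increases with RA, 7 were in COL21A1, 6 in COL22A1 and 1 in COL14A1, so the share was not spread over the class. Of the 4 decreases with RA, 3 were in COL16A1 and 1 in COL19A1. COL21A1, a small FACIT chain, had 11 regions, of which 7 increased with RA, 6 with PB+RA and 0 with PB; 10 had a positive concentration difference with RA and 10 with PB+RA, with medians of 1.59 and 1.92. The region 4115 bases upstream, chr6:56263007-56265528, had values of 3.49, 2.82, 2.91 and 2.08 with RA and 3.34, 2.92, 2.60 and 2.14 with PB+RA, against 0 in every DMSO library; with PB, 1 library had 0.163 and the rest 0. It increased with RA (1.92 ± 0.24, adjusted p = 7.44e-06) and PB+RA (1.90 ± 0.24, adjusted p = 5.2e-06). The intronic regions chr6:56223666-56226356 (2.84 ± 1.30 with RA and 3.73 ± 0.733 with PB+RA, against 0 in DMSO), chr6:56227447-56232224 (3.35 ± 1.28 and 3.92 ± 0.629, against 1.03 ± 0.471) and chr6:55960918-55962538 (1.85 ± 0.984 and 1.58 ± 0.570, against 0) increased with both. The start site of COL21A1 (chr6:56258335-56259234) did not follow: 1 PB, 1 RA, 1 PB+RA and 2 DMSO libraries had a peak there.

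COL19A1 and COL12A1 had regions with peaks in all 4 PB+RA libraries and in few or none of the others. At chr6:70878213-70879646, over a COL19A1 exon, the values were 2.11, 2.53, 2.77 and 1.09 with PB+RA, 0.299 in 1 RA library with the other RA libraries at 0, and 0 in all PB libraries, against 0 in every DMSO library; its concentration difference with PB+RA, 3.69, was the largest of any member. PB+RA was higher than DMSO (1.61 ± 0.28, adjusted p = 0.000151) and than RA (1.51, adjusted p = 0.00127). At chr6:75812371-75813271, the single region of COL12A1, the PB+RA values were 1.05, 1.36, 3.38 and 2.41, with 1 RA library at 0.582 and all others at 0 (PB+RA against RA 1.38, adjusted p = 0.00409). A second COL19A1 region, chr6:70604671-70605614, decreased with RA (0.452 ± 0.551 against 2.93 ± 0.483, adjusted p = 0.000309) and was higher with PB+RA (2.2 ± 1.15) than with RA.

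COL22A1, a collagen of tissue junctions, had 24 regions on chromosome 8. Of these, 3 increased with PB, 6 with RA and 3 in PB+RA, beside 4.85%, 10.3% and 18.3% of all regions. COL22A1 had 1 decrease against DMSO, in PB+RA. At the intronic region chr8:139794209-139807648 the values averaged 4.74 ± 1.28 with PB, 5.05 ± 1.16 with RA and 5.49 ± 1.85 in PB+RA, against 1.5 ± 0.589 in DMSO, and it increased with each. Other intronic regions increased with PB, chr8:139903529-139907016 (4.61 ± 0.675 against 1.69 ± 0.333) and chr8:139827537-139831664 (4.63 ± 0.901 against 1.02 ± 0.807). Its start-site region, chr8:139922269-139927480, was the only start-site region of a member to increase with any treatment, with RA (2.57 ± 0.397 against 0.721 ± 0.303, adjusted p = 0.00308). Upstream, chr8:139964304-139966923 was lower with PB+RA (0.960 ± 0.5) than with PB (3.79 ± 0.447, difference −1.33, adjusted p = 0.000318). The concentrations there were 6.92 with PB, 5.88 with RA and 5.96 in PB+RA, against 6.64 in DMSO. In COL14A1, 14 regions gave 1 increase with RA and 2 with PB+RA, beside 10.3% and 18.3% of all regions. COL9A1 had 1 region and no call.

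COL9A2, COL9A3 and COL16A1 had decreases and no increases against DMSO. COL9A3 had 1 region, chr20:61432145-61466429, which is 34285 bases wide and also covers the start site of OGFR. It had 2.34, 2.11, 2.13 and 1.99 with PB, 4.26, 4.42, 4.51 and 4.11 with RA and 1.10, 1.49, 1.39 and 2.11 in PB+RA, against 6.80, 4.86, 3.75 and 5.76 in DMSO. PB and PB+RA lay below all DMSO libraries, and RA overlapped them; the differences were −0.98 ± 0.17 (adjusted p = 0.00155) with PB and −1.31 ± 0.17 (adjusted p = 1.02e-05) with PB+RA. The COL9A2 start site (chr1:40779191-40783379) averaged 2.99 ± 0.412 with PB, 6.27 ± 0.594 with RA and 2.42 ± 0.388 in PB+RA, against 4.67 ± 0.568 in DMSO. It decreased with PB (adjusted p = 0.0413) and PB+RA (adjusted p = 0.000997), and PB+RA was below RA (−1.09 ± 0.15, adjusted p = 0.000235). At COL16A1 the region over an internal start site, chr1:32130595-32134513, had no peak with PB, 0.237 ± 0.392 with RA and 0.426 ± 0.323 in PB+RA, against 2.13 ± 1.52 in DMSO, and decreased with each. The PB calls at COL9A3 and COL16A1 and the PB+RA call at COL9A2 were lost with values centred within GC classes.

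In the basement membrane group, COL18A1, a multiplexin whose C-terminal fragment is endostatin, had 21 regions with a median GC content of 63.2%. Of these, 4 decreased with PB, 1 with RA and 5 in PB+RA, beside 4.37%, 6.67% and 12% of all regions. The region 36283 bases upstream, chr21:46775071-46788797, had values of 1.10, 1.20, 1.26 and 1.36 with PB, 2.57, 2.86, 3.42 and 3.01 with RA and 2.2, 2.34, 1.68 and 2.17 in PB+RA, against 4.82, 4.71, 3.55 and 4.31 in DMSO. All PB libraries lay below all others, and the PB difference, −1.26 ± 0.17 (adjusted p = 0.000155), had the smallest p among decreased members with PB. It also decreased with PB+RA (−0.79, adjusted p = 0.00101), a call that was lost with values centred within GC classes. Its neighbour chr21:46767033-46774386 decreased with PB+RA (0.789 ± 0.432 against 3.35 ± 0.572). Over a start site of COL18A1, chr21:46824054-46826155 (76.0% GC), 1 PB, 4 RA, 1 PB+RA and 4 DMSO libraries had a peak, and it decreased with PB (−1.77 ± 0.38, adjusted p = 0.00593) and PB+RA (−1.54, adjusted p = 0.00402). COL15A1, the other multiplexin, had 1 region and no call. COL4A2, a chain of the collagen IV network, had 6 regions; chr13:111151144-111153419 increased with RA (2.67 ± 0.297) and PB+RA (2.02 ± 0.670), against 0.0632 ± 0.126 in DMSO and 0 with PB. Its region chr13:111084266-111086280 was higher with PB+RA than with RA (3.41 ± 0.777 against 0.751 ± 0.601, difference 1.39, adjusted p = 0.00241). The concentrations there were 6.06 with PB, 5.1 with RA and 6.67 in PB+RA, against 6.1 in DMSO, so RA was the lowest group. COL4A4 had 4 regions downstream of the gene and no call against DMSO.

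Among the transmembrane collagens, COL13A1 had 22 regions and COL23A1 33. Of the COL13A1 regions, 1 increased with PB, 6 with RA and 1 in PB+RA, beside 4.85%, 10.3% and 18.3% of all regions. In PB+RA 1 decreased against DMSO, and 4 decreased for PB+RA against RA. The median concentration difference at COL13A1 was −0.16 with PB, 0.4 with RA and −0.34 in PB+RA, unlike the region described next. The COL13A1 region chr10:71732416-71738548, 42187 bases from a COL13A1 start site and past the end of the gene, had values of 4.20, 4.84, 3.59 and 3.91 with PB, 7.48, 6.65, 6.46 and 5.63 with RA and 8.72, 9.51, 10.0 and 7.61 in PB+RA, against 2.31, 1.53, 1.32 and 1.76 in DMSO. The 4 groups did not overlap. The differences were 0.92 ± 0.16 (adjusted p = 0.00109), 1.47 ± 0.16 (adjusted p = 1.24e-06) and 1.87 ± 0.16 (adjusted p = 3.29e-08) for PB, RA and PB+RA. In COL23A1, 3 regions decreased with PB, 4 with RA and 8 in PB+RA, beside 4.37%, 6.67% and 12% of all regions. COL23A1 also had 1 region increased with RA and 1 in PB+RA. Its start site, chr5:178015947-178018126, averaged 0.756 ± 0.674 with PB, 2.88 ± 1.5 with RA and 1.48 ± 0.593 in PB+RA, against 4.41 ± 2.80 in DMSO, and the PB call (adjusted p = 0.00772) was lost with values centred within GC classes. Intronic regions of COL23A1 decreased with RA at chr5:177848874-177853048 (0.224 ± 0.268 against 2.18 ± 0.921) and chr5:177790165-177793388 (1.97 ± 0.300 against 3.91 ± 0.805), and increased with PB+RA at chr5:177762714-177766722 (5.10 ± 0.633 against 2.02 ± 0.939). COL25A1 had 1 region and no call.

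COL7A1, the anchoring fibril collagen, had 5 regions with median differences of −1.34 with PB and −1.25 with PB+RA. The region that decreased with PB and PB+RA, chr3:48591170-48607895, covers the 3′ part of COL7A1 and the start sites of PFKFB4 and UCN2. It averaged 1.66 ± 0.115 with PB, 3.27 ± 0.213 with RA and 1.42 ± 0.279 in PB+RA, against 4.18 ± 0.767 in DMSO. PB+RA was also lower than RA (−0.83, adjusted p = 0.00271), a call lost with values centred within GC classes. COL8A2, a short-chain collagen, had 1 region decreased with PB and 2 with PB+RA. At its exonic region chr1:36558403-36563315 the average was 0.383 ± 0.353 with PB+RA, 1.78 ± 0.929 with PB and 1.95 ± 0.632 in DMSO. COL8A1 had 1 region and no call.

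FBN1, the main fibrillin, decreased with RA. Of its 8 regions 3 decreased with RA, 3 with PB+RA and 0 with PB, beside 6.67%, 12% and 4.37% of all regions. At the intronic region chr15:48864348-48867552, 70354 bases from the start site, the values were 3.54, 4.84, 3.20 and 3.6 with PB, 0.443, 0.268, 0 and 0.159 with RA, and 1.73, 2.78, 2.68 and 2.07 in PB+RA, against 6.12, 4.80, 6.85 and 3.25 in DMSO. All RA libraries lay below all others, and the PB+RA libraries lay between RA and DMSO. The differences were −2.34 ± 0.21 (adjusted p = 1.9e-07) with RA, −0.89 (adjusted p = 0.00266) with PB+RA and −0.36 (adjusted p = 0.292) with PB. PB+RA was higher than RA alone (1.45 ± 0.21, adjusted p = 0.000276), and the interaction of the drugs was 1.80 ± 0.30 (adjusted p = 0.0206). The interaction call was lost without PB replicate 1 or RA replicate 2, with the share of bases under peaks as the measure and with only peaks of −log10 q of 5 or more. It was also lost with replicates 1 and 2 only and with replicates 3 and 4 only. Further regions of FBN1 decreased with RA and PB+RA. At chr15:48828215-48830423 no RA or PB+RA library had a peak, and values were 1.28 ± 0.912 with PB and 2.13 ± 0.550 in DMSO; at chr15:48825372-48826967 they were 0.349 ± 0.511 with PB, 0 with RA and 0.0589 ± 0.118 in PB+RA, against 1.46 ± 0.903 in DMSO. These regions had GC contents of 34.3 to 41.2%, and all the FBN1 calls with RA were kept with values centred within GC classes. The FBN1 start site (chr15:48936530-48938758, 65.3% GC) was not called.

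ELN, which encodes elastin, had 13 regions. Of these, 3 decreased with PB, 1 with RA and 6 in PB+RA, beside 4.37%, 6.67% and 12% of all regions. Its start-site region, chr7:73450694-73462913, covers an annotated start inside the gene and not the gene's 5′ end at 73442119. It had 4.49, 3.89, 4.79 and 5.42 with PB+RA, 11.8, 10.6, 9.36 and 8.17 with PB and 9.21, 8.11, 8.38 and 5.93 with RA, against 9.08, 10.1, 5.19 and 8.77 in DMSO. It decreased with PB+RA against DMSO (−0.69, adjusted p = 0.00648) and was lower with PB+RA than with PB (−0.96 ± 0.18, adjusted p = 0.000856), while neither single drug was called. Upstream, chr7:73385416-73386117 decreased with every treatment (0.191 ± 0.382 with PB, 0.239 ± 0.478 with RA and 0 in PB+RA, against 2.45 ± 1.32 in DMSO; the PB call was lost with values centred within GC classes), and chr7:73405873-73407170 was at 0 in all PB and PB+RA libraries, with 2.4 ± 0.888 with RA and 1.55 ± 0.754 in DMSO. FN1, which encodes fibronectin, had 5 regions and no call against DMSO. Its start site (chr2:216300129-216302034) had 1.70, 1.69, 4.18 and 3.39 with PB, 7.70, 7.37, 7.59 and 7.64 with RA and 2.68, 2.91, 3.48 and 4.99 in PB+RA, against 4.83, 2.68, 6.46 and 5.13 in DMSO. The RA libraries lay above all others, but the adjusted p against DMSO was 0.0687. Of the FN1 regions upstream, chr2:216328466-216329780 had a concentration difference of 3.45 with RA, resting on peaks in 2 RA libraries, and was not called. FBN3 had 3 regions and no call.

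A start-site region, here one lying 1 kb or less from an annotated start, was found for 27 of the 35 genes, and 8 (COL1A2, COL3A1, COL5A2, COL24A1, COL4A4, COL9A1, COL12A1 and COL15A1) had regions only elsewhere. Taking the region with the highest concentration for each of the 27, the difference from DMSO had a median of −0.76 for PB, −0.05 for RA and −0.81 in PB+RA, beside −0.39, −0.19 and −0.19 over the start-site regions of 14457 genes taken in the same way. With PB 8 decreased and 0 increased, where 10.1% and 1.29% of those genes did. With RA 0 decreased and 1 increased, beside 4.25% and 4.40%, and with PB+RA 10 decreased and 0 increased, beside 17.9% and 7.87%. The start-site regions of those 14457 genes had a median GC content of 53.9%, and the 42 member regions within 1 kb of their own start site had 62.5%. The part of this difference in the start-site counts was not tested. Per kb of region, the DMSO concentration of the 27 start-site regions was highest at ELN (6.91), COL6A2 (6.75), COL6A1 (6.74), COL1A1 (6.49) and FN1 (6.49) and lowest at FBN3 (2.02), as log2 of the authors' mean. At ELN, COL4A2, COL6A3, COL8A2, COL11A1, COL14A1 and COL18A1 the chosen region was at an internal annotated start, more than 1 kb from the gene's 5′ end. In 13 of the 27 a peak was called in all libraries.

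The 7 genes without a deposited region were COL4A1, COL4A3, COL4A5, COL4A6, COL5A3, COL11A2 and FBN2. In the single-library peak lists COL11A2, COL4A5, COL4A6 and FBN2 had no peak within the gene or 1 kb of it, COL4A1 had a peak in 1 DMSO library, COL4A3 in 1 PB library, and COL5A3 in 2 PB, 1 RA, 1 PB+RA and 1 DMSO libraries. At the edge of the distance rule, the farthest regions inside it were at 96972 bases from COL5A1 (concentration 2.85 with PB, 3.43 with RA and 2.79 in PB+RA, against 3.82 in DMSO) and 97330 bases from COL23A1 (7.32, 6.33 and 7.14, against 7.42). The nearest outside it were at 111793 bases from COL14A1 (9.48, 9.93 and 9.76, against 8.95) and 115354 bases from COL5A1 (3.68, 4.51 and 3.23, against 5.00).

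Each drug was also set against the combination. PB+RA against RA gave 42 decreased member regions (13.0%, against 5.92% of all regions) and 12 increased (3.73%, against 8.62%). The decreases were led by the start sites of COL9A2, COL1A1 and COL9A3 and by COL3A1, ELN and COL7A1, and the increases by FBN1, COL6A3, COL19A1, COL4A2 and COL12A1, with the values above. PB+RA against PB gave 21 increased (6.52%, against 11.2%) and 12 decreased (3.73%, against 5.37%). That balance turned with quantile normalization (16 increased and 20 decreased), with centring within GC classes (16 and 17), with only peaks of −log10 q of 5 or more (2 and 3) and with replicates 1 and 2 only (15 and 17). Over all regions those settings gave, in the same order, 8045 and 7156, 7075 and 8438, 1961 and 852, and 7810 and 5060. Increases were led by COL21A1, COL6A3, COL4A2, COL13A1 and COL19A1, and decreases by COL5A1, COL22A1, ELN, COL8A2, FBN1 and COL27A1. The interaction of the drugs was called at 1 member region upwards, in FBN1, and 1 downwards, near COL3A1 (0.311% each, against 0.211% and 0.152% of all regions). By call pattern against DMSO, 24 member regions decreased with PB and PB+RA but were not called with RA (7.45%, against 2.22% of all regions), 7 decreased with all (2.17%, against 1.26%), 9 with RA and PB+RA (2.80%, against 3.25%) and 30 with PB+RA alone (9.32%, against 5.29%). On the increasing side, 20 were called with RA alone (6.21%, against 3.55%), 12 with PB+RA alone (3.73%, against 10.0%), 11 with RA and PB+RA (3.42%, against 5.24%) and 2 with all (0.621%, against 1.36%). No call was made at 198 regions (61.5%, against 61.4%), and 8 of the 35 genes had none.

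The 66 other matrix genes listed for context had 417 regions in 60 genes. Of these regions 44 decreased with PB (10.6%) and 14 increased, 27 decreased with RA (6.47%) and 32 increased, and 79 decreased with PB+RA (18.9%) and 34 increased. Their median GC content was 53.2%, and their median differences were −0.48 for PB, −0.14 for RA and −0.50 in PB+RA. Genes of collagen processing and crosslinking, such as the lysyl oxidases and the prolyl and lysyl hydroxylases, had 20 of 166 regions decreased with PB (12%, against 4.37% of all regions) and 29 with PB+RA (17.5%, against 12%), with 2 and 10 increased. With RA the lists differed in balance, where 10.3% of all regions increased and 6.67% decreased. Matricellular genes, such as SPARC and the thrombospondins, had 10 of 36 regions increased (27.8%) and 2 decreased, and the microfibril partners had 8 of 75 increased (10.7%) and 2 decreased. Small and large proteoglycans had 2 of 55 regions increased and 8 decreased (14.5%), matrix proteases and their inhibitors 1 of 44 increased and 6 decreased (13.6%), and collagen receptors 0 of 20 increased and 2 decreased. Processing genes had 8 increased and 6 decreased, and collagens not among the members 3 and 1.

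These counts rest on some libraries and on the depth of the peak calls. Without DMSO replicate 3, which had the fewest peaks, 69 member regions decreased with PB, 40 with RA and 112 in PB+RA; without PB replicate 1 or 2 or DMSO replicate 1, 2 or 4 the decreases with PB numbered 18 to 21, and without DMSO replicate 4 the increases with PB numbered 11. Without PBandRA replicate 2 the decreases of PB+RA against RA numbered 25, and without PB replicate 3 or PBandRA replicate 1 those of PB+RA against PB numbered 6 and 7. With replicates 1 and 2 only, 60 member regions decreased with PB and 87 with PB+RA. With replicates 3 and 4 only, 4 and 11 did (1.24% and 3.42%, against 0.48% and 2.69% of all regions), and 40 of the 93 named tests stayed called.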

How the data were processed

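H3K27ac ChIP-seq of SK-N-BE(2)C cells was analysed from 16 ChIP libraries, 4 in each of 4 groups; 16 inputs have no values here. Group and replicate were read from each sample's title. Per the submitters' processing notes, the authors used fastp 0.12.4 for trimming, Bowtie2 2.4.4 for alignment (build hg19) and MACS2 2.2.7.1 for broad peaks of each library over its input. For each peak, the deposited lists hold a ratio (ChIP over input, a fold enrichment) and a −log10 q, both from the authors' peak caller. The authors counted reads with DiffBind 3.4 over a consensus needing 2 of the 4 libraries of any condition, and the deposited tables give the mean log2 concentration of each group. The tables also hold the authors' own fold, p-value and FDR, which were not used. Read depth of the libraries was not used; peak calling depends on depth, so a value of 0 means that no peak was called.

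For each region and library, overlap in bases times fold enrichment was summed over peaks and divided by region width, and libraries were scaled to equal medians. limma 3.58.1 (R 4.3.3, trend, all libraries in one fit) was run on log2 of this value plus 1, with Benjamini-Hochberg adjustment over 92108 regions, and was tested on simulated data. The genome sequence and annotation (GENCODE, lifted to GRCh37) use the hg19 chromosome names; 16 regions lay on names not in that reference and 0 ran past a sequence end. Named by value are up to 12 regions per direction with the smallest p against DMSO, up to 6 in other contrasts, start-site regions, and the 5 largest and smallest concentration differences. Regions cited with neither a call nor such a rank were chosen after their values were seen. The members, lists and thresholds were chosen with earlier results of these data known. Some listed marker genes are not reported here. Alternatives tried were scaling, pseudocount, filters, peak threshold, overlap, measure, GC classes, fold minimum, samples in the fit, replicate block, omission of each library and narrower assignment of regions.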

Additional observations from a re-analysis of the deposited data

Results flagged for a closer look

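The effect of RA differed with PB at 2 member regions by the test of the interaction (limma). In FBN1, at chr15:48864348-48867552, the interaction was 1.80 ± 0.30 (adjusted p = 0.0206): the RA difference was −2.34 without PB, and PB+RA minus PB was −0.53. This call was lost when PB replicate 1 or RA replicate 2 was left out, with the share of bases under peaks as the measure and with only peaks of −log10 q of 5 or more. The same call was lost with replicates 1 and 2 only and with replicates 3 and 4 only. Near COL3A1, at chr2:189886515-189887990, it was −1.82 ± 0.37 (adjusted p = 0.0365), with peaks in RA libraries only; this call was lost with the replicate block, with the share of bases under peaks as the measure, with only peaks of −log10 q of 5 or more, without scaling and without any 1 of DMSO replicates 1, 2 and 4, the 4 PB libraries, RA replicates 1 and 2 and PBandRA replicate 1.

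In 203 groups of 4 libraries, over 54 named regions and the peak totals, the gap to 1 library was taken as a share of the range. The cutoff was set to flag about 1 in 20 groups by chance, a rate that does not hold where many values are 0. With 3 libraries at 0 the share is 1.000 however small the remaining value, so such a flag does not show a library far from the others. By this measure 26 groups were flagged. In 18 of them a single library differed from 3 equal at 0 (gap over range 1.000): COL2A1 from 48384326, COL1A2 from 94069161, COL4A2 from 111151144, COL5A2 from 190074281 and COL5A1 from 137494204 in DMSO; COL6A1 from 47408379, COL18A1 from 46824054, ELN from 73385416, COL21A1 from 56263007 and from 55960918, COL5A1 from 137494204 and COL6A3 from 238168524 in PB; ELN from 73385416, COL19A1 from 70878213 and COL12A1 from 75812371 in RA; and COL6A1 from 47408379, COL18A1 from 46824054 and FBN1 from 48825372 in PB+RA. In the other 8 the share was 0.855 for COL5A2 in PB (replicate 4 low), 0.874 for COL22A1 from 139903529 in DMSO (replicate 3 high), 0.853 for COL22A1 from 139827537 in PB+RA (replicate 4 low), 0.866 for COL7A1 in DMSO (replicate 1 high), 0.943 for COL5A1 from 137589053 in PB (replicate 2 high), 0.867 for COL6A2 in PB+RA (replicate 3 low), 0.836 for COL23A1 from 177848874 in PB+RA (replicate 1 low) and 0.945 for ELN from 73405873 in DMSO (replicate 1 low).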

How the results depend on the processing

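Counts below are member regions increased and then decreased. Centring within GC classes gave 9 and 9 with PB, 26 and 35 with PB+RA, 10 and 21 for PB+RA against RA, 16 and 17 against PB and 2 decreases for the interaction. Fitting only the groups compared gave 4 and 7 with PB, 18 and 7 with RA, 39 decreases with PB+RA, 7 and 25 for PB+RA against RA and 6 decreases for PB+RA against PB. Keeping only peaks with −log10 q of 5 or more, which left most regions without a peak, gave 2 and 5 with PB, 5 and 5 with RA, 7 and 14 with PB+RA, 4 and 6 against RA, 2 and 3 against PB and 0 and 0 for the interaction. The share of bases under peaks gave 4 increases with PB, 7 decreases for PB+RA against PB and 0 and 0 for the interaction. Quantile normalization gave 27 and 28 with RA and 16 and 20 for PB+RA against PB. No scaling gave 0 decreases for the interaction, and a peak in at least 3 of 4 libraries gave 4 and 2. Regions within 10 kb of a start site gave 2 and 18 with PB, 8 and 3 with RA, 8 and 26 with PB+RA, 4 and 21 against RA, 6 and 4 against PB and 0 and 0 for the interaction; regions in gene bodies gave 21 increases with RA, 24 decreases against RA and 0 decreases for the interaction. The cause was not tested beyond the smaller numbers of regions or libraries in these fits.

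Leaving out 1 library in turn gave 5 to 11 increases and 18 to 69 decreases with PB, 24 to 37 and 15 to 40 with RA, 20 to 30 and 54 to 112 with PB+RA, 9 to 14 and 25 to 55 for PB+RA against RA, 14 to 22 and 6 to 13 for PB+RA against PB, and 0 to 2 and 0 to 2 for the interaction. After the data were seen, replicates 1 and 2 were set against 3 and 4. As a term this gave 3 decreases for the interaction. Replicates 1 and 2 only gave 11 and 60 with PB, 32 and 36 with RA, 15 and 17 for PB+RA against PB and 9 and 17 for the interaction. Replicates 3 and 4 only gave 0 and 4 with PB, 16 and 6 with RA, 12 and 11 with PB+RA, 5 and 13 against RA, 8 and 2 against PB and 6 and 5 for the interaction.

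Of 16 libraries, 0 correlated best with a library of their own replicate number. Correlations of deviations between same-numbered libraries ran between −0.06 and 0.19, over 0.1 in 13 of 24 pairs. Same-numbered libraries also fall in the same set of replicates (1 and 2, or 3 and 4), so sharing by number alone was not told apart. The replicate block gave 9 and 38 with PB, 39 and 21 with RA, 31 and 77 with PB+RA, 13 and 50 against RA and 23 and 16 against PB. It ended 1 named call, the interaction near COL3A1. Over all regions the block gave 5531 and 5151 with PB, in place of 4471 and 4026. With PB+RA it gave 18045 and 12312 over all regions, in place of 16856 and 11095. Over the 93 named tests no alternative reversed a direction; all 93 were called with either pseudocount and with the stricter overlap of peaks, 82 with GC classes, 92 with the block, 32 with the stricter peaks and 24 under every alternative other than those chosen after the data were seen; 40 were called with replicates 3 and 4 only, where 0 of 7 named increases and 2 of 12 named decreases with PB were called. Over all regions, no scaling gave 2562 and 4042 with PB, in place of 4471 and 4026, and the median interaction was 0.16, in place of 0.06; quantile normalization gave 8045 and 7156 for PB+RA against PB, in place of 10277 and 4950; centring within GC classes gave 7075 and 8438 there. Depth limits low values: a 0 is a peak not called.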
